A study of Homo sapiens with 12 samples.

Results

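The 39 genes described here encode enzymes and membrane proteins of the lysosome, together with the transcription factor TFEB. They are a list of gene symbols, chosen with earlier results of these data known and looked up in a table of 60612 genes. Shares of the list that changed therefore describe these genes only. Each symbol matched 1 entry of the table, and all 39 genes passed the filter on low counts that left 21328 genes for testing. By role they are 6 membrane proteins and channels, 10 proteases, 10 glycosidases, 5 sulfatases, 7 lipid hydrolases, lipid carriers and activators, and TFEB.

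Expression was measured by polyadenylated RNA sequencing in wild-type LX2, a human cell line established from hepatic stellate cells. All cells were kept without serum for 16 h, starting 24 h after seeding. The control group had no further treatment, the TGFb group received 5 ng/ml TGFb (transforming growth factor beta, a cytokine that activates stellate cells) for 16 h, and the STINGX+TGFb group received 10 µM of the compound IFM-004990-7, named STINGX in the labels, for 3 h before the same TGFb. Each group had 4 libraries. No group received STINGX without TGFb, so every comparison with STINGX also holds TGFb in at least 1 arm. The series title names the STING pathway, a cytosolic DNA-sensing route, and the comparisons ask how TGFb and STINGX before TGFb change expression.

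Lysosomes degrade proteins, glycans, lipids and nucleic acids with hydrolases that work at acid pH. Most of these hydrolases are tagged with mannose 6-phosphate in the Golgi and carried to the lysosome by sorting receptors, while membrane proteins protect the limiting membrane, export the products and release ions. TFEB and its relatives TFE3 and MITF bind E-box sites in many lysosomal promoters, and hepatic stellate cells are known to rely on lysosomal degradation when their lipid droplets are broken down.

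Library totals ran from 54035320 to 70787741 counts. Differences between groups are given as TMM-scaled CPM (counts relative to library size, with a scale factor set by the typical gene), and levels of different genes are compared only as the deposited FPKM, which is per length. Whether the 4 libraries of a group are separate cultures is not stated in the labels, and the p-values cover only the variation among these libraries, part or all of which may be technical. In bulk libraries, fewer cells with a transcript and less of it per cell cannot be told apart. Of the stellate and mesenchymal markers, COL1A1, COL1A2, PDGFRB and VIM were well expressed, and DES and LRAT had a count of 0 in all 12 libraries. Of 14 macrophage and leukocyte markers, 5 (AIF1, FCGR3A, TYROBP, C1QA and C1QB) had a count of 0 in every library, and the other 9 summed to between 82.4 and 91.9 CPM in control, 36.5 and 46.4 CPM after TGFb, and 78.3 and 94.0 CPM with STINGX before TGFb. CD68, itself a lysosomal glycoprotein and given by library below, made up most of the mean sum in each group. The hepatocyte markers ALB, APOC3, TTR and FGB were at 0, and that list summed to at most 10.7 CPM in any library. The 7 endothelial markers, CLEC4G at 0, summed to between 10.9 and 15.04 CPM, and the 6 epithelial markers, CFTR at 0, to between 29.4 and 65.1 CPM.

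Short sequences are shown for 5 of the genes whose promoters hold the palindrome that the TFEB family is known to bind. RefSeq promoter windows of 300 bases (250 before to 50 after the start, GRCh38.p14) were found for 27 of the 39 genes, in 41 windows. The letters CACGTG stood in 7.26% of all 35116 windows and in 9 of the 41, belonging to ARSB, CD63, CTSA, CTSD, GAA, GALNS, LAMP1, MCOLN1 and NEU1. The longer TCACGTGA, which contains CACGTG, stood in 0.98% of all windows and in 5 of the 41. Each of these strings is its own reverse complement, so both strands were searched at once. The 5 genes with TCACGTGA are printed from 5′ to 3′ on the strand of the gene, with TCACGTGA in capitals.
CTSA (chr20:45891269-45891356, plus strand) is the part of its window around 1 site, 26 bases before the start.
CTSA: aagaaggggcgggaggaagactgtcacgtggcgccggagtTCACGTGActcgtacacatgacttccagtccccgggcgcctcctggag
GAA (chr17:80101464-80101596, plus strand) has 2 sites, 77 and 32 bases before the start.
GAA: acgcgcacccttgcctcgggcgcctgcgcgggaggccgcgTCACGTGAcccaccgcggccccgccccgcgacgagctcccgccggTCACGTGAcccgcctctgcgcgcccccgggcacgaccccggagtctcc
GALNS (chr16:88857075-88857162, minus strand) has 1 site, 175 bases before the start.
GALNS: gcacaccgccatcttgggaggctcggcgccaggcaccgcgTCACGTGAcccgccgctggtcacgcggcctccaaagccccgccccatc
LAMP1 (chr13:113297170-113297268, plus strand) has 2 sites. The first begins 29 bases before the start, and the second spans the start, from 2 bases before it to base 6 after it.
LAMP1: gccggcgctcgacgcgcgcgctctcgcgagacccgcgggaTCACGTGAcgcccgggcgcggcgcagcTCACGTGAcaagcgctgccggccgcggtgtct
MCOLN1 (chr19:7522542-7522653, plus strand) has 2 sites, 42 and 15 bases before the start.
MCOLN1: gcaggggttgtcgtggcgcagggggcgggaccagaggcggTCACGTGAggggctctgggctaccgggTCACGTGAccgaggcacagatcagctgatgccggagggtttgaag
A match describes these letters only. The values of the 5 genes are given below with their roles, and they did not move in 1 direction: between STINGX+TGFb and TGFb, MCOLN1 rose while CTSA, GAA, GALNS and LAMP1 fell.

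In control cells the levels of the 39 genes spanned from 382 FPKM for PSAP, the precursor of the saposins that activate sphingolipid hydrolases, to 0.862 FPKM for TFEB. The next highest genes in control were CD63, a tetraspanin of late endosomes and lysosomes (208 FPKM), GRN, the precursor of granulins (186 FPKM), and the proteases CTSZ (149 FPKM) and CTSL (136 FPKM). After TGFb the mean of CTSL was 70.7 FPKM and that of PSAP 295 FPKM. The lowest enzymes in control were MANBA (2.92 FPKM), IDUA (3.16 FPKM) and CTSK (3.22 FPKM). Summed over the 39 genes, the TMM-scaled level was 7985 ± 568 CPM in control (SD, n = 4), 6721 ± 232 CPM after TGFb and 6100 ± 152 CPM with STINGX before TGFb. The same sum in FPKM was 1748 ± 100 in control, 1383 ± 31.4 after TGFb and 1431 ± 26.8 with STINGX before TGFb, so the order of the 2 treated groups turned with the scale.

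After TGFb, most of the lysosomal genes that changed were lower than in control, by less than 2-fold each. The proteases CTSL, TPP1 and CTSA, the cholesterol exporter NPC1 and the glycosidase FUCA1 had the largest falls, and only MANBA, LGMN and LAMP2 rose. In edgeR's quasi-likelihood test with Benjamini-Hochberg adjustment over all genes, 3 of the 39 genes were higher, 15 lower and 21 did not pass. That is 46.2% of the members, beside 26% of all genes tested (13.2% higher and 12.8% lower) and 35.2% of the 11765 genes expressed at or above the lowest member (18.9% higher and 16.3% lower). The median log2 fold change was −0.17 over the members and 0.00 over all genes tested. TGFb and control libraries were fully separated for 20 members, 4 higher and 16 lower, beside 27.1% of all genes. By role the falls were 2 of 6 membrane proteins, 4 of 10 proteases, 5 of 10 glycosidases, 0 of 5 sulfatases and 4 of 7 lipid genes, and TFEB did not pass. Without control replicate 2, 5 members were higher.

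With STINGX before TGFb, compared with TGFb alone, 6 members were higher (CTSL, TPP1, MCOLN1, IDUA, NPC1 and GUSB), 17 lower and 16 did not pass. That is 59% of the members, beside 27.5% of all genes tested (13.7% higher and 13.8% lower) and 37.7% of the genes at or above the lowest member (18.6% higher and 19.1% lower). The libraries were fully separated for 25 members, 9 higher and 16 lower, beside 31.6% of all genes. The median log2 fold change was −0.19 over the members and 0.01 over all genes. These directions depended on the scaling: with library size alone, 11 members were higher and 9 lower, the median of all genes moved to 0.15, and 4997 genes were higher against 1890 lower (72.6% of calls higher, against 50% under TMM). On log2(FPKM + 1) the members' counts were also 11 higher and 9 lower, among 4918 genes higher and 1907 lower. The changes below are therefore relative to the typical gene. Of the 23 calls, 13 passed in the same direction under every setting run: LAMP1, CTSS, CTSZ, MANBA, NPC2, GRN, GALNS, LGMN and TFEB lower, and CTSL, GUSB, NPC1 and MCOLN1 higher.

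Between STINGX+TGFb and untreated cells, 1 member was higher (MCOLN1) and 21 lower, which is 56.4% of the members beside 34.2% of all genes tested (17.2% higher and 17% lower) and 46.8% of those at or above the lowest member (24.6% higher and 22.2% lower). The median was −0.31 over the members and 0.00 over all genes. The 2 members past 2-fold were GRN (-1.10 ± 0.09, adjusted p = 1.34e-06) and SMPD1 (-1.07 ± 0.24, adjusted p = 0.00421), both lower. With library size alone, 4 members were higher and 17 lower in this comparison, and without STINGX+TGFb replicate 1, 2 were higher. The 3 comparisons share groups, so their values are set side by side below and no overlap between them was computed.

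**Figure D1:**
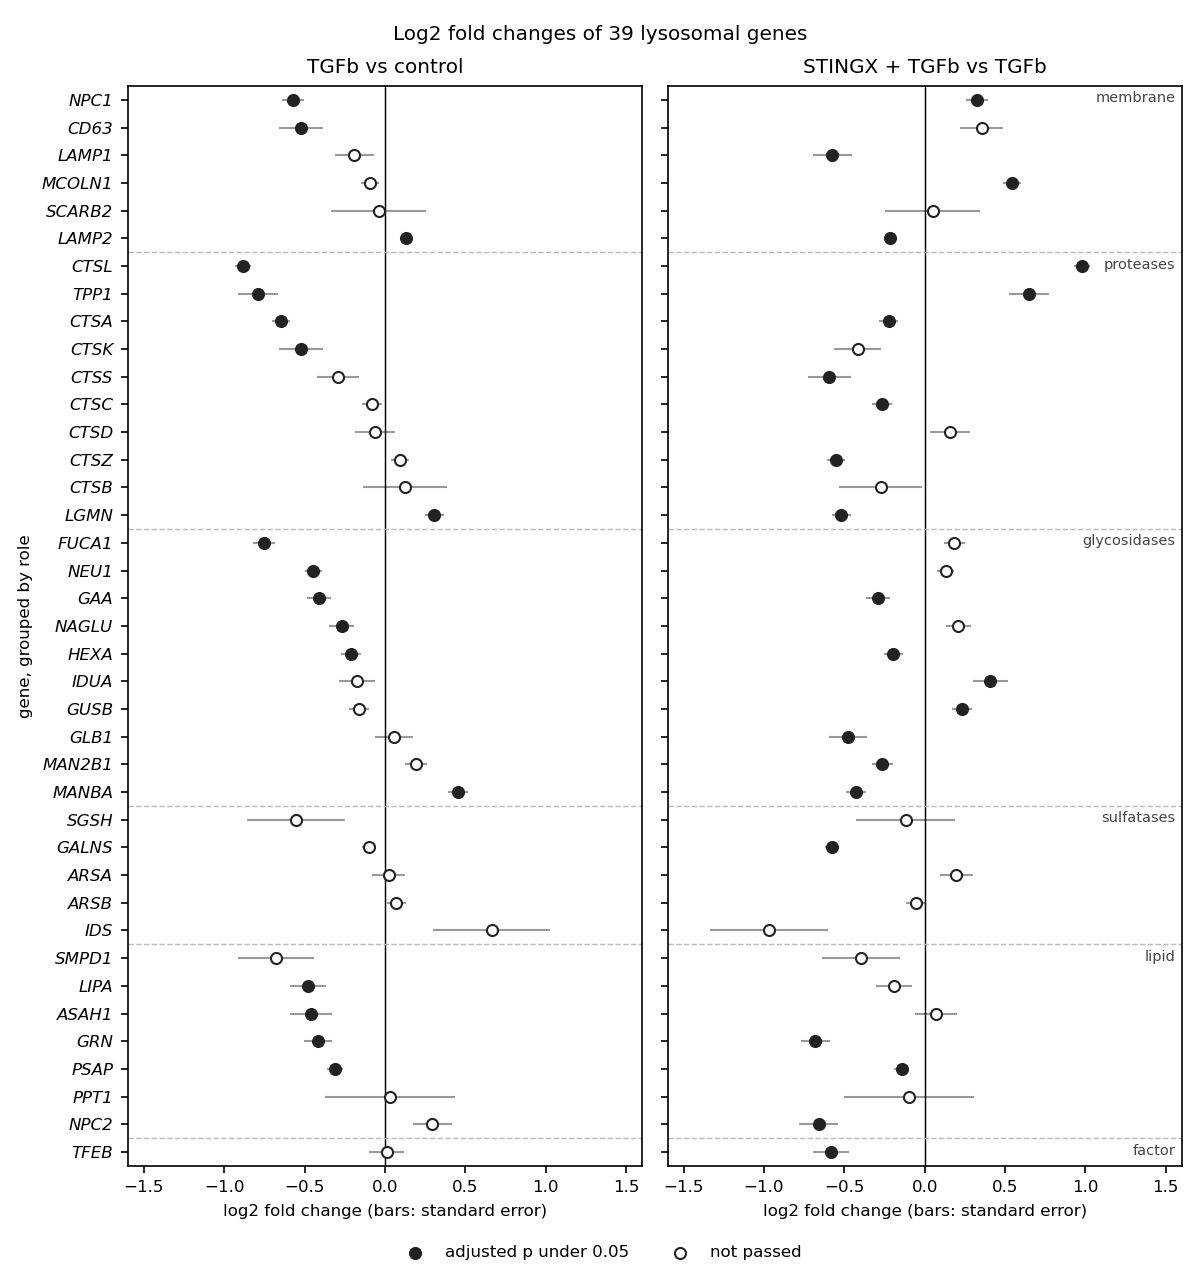
Log2 fold change of each of the 39 genes (vertical axis, grouped by role) between TGFb and control (left) and between STINGX+TGFb and TGFb (right). Points are edgeR estimates, bars are standard errors, and filled points passed an adjusted p of 0.05: 15 filled points lie below 0 and 3 above on the left, 17 below and 6 above on the right.

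Among the proteases, CTSL and TPP1 were lower after TGFb and higher again when STINGX was given first. CTSL, a cysteine endopeptidase of broad action, lies at chr9:87726109-87731393 on the plus strand (GENCODE 29, GRCh38). It had 322, 317, 283 and 280.2 CPM in the control libraries, 166, 168, 161 and 158 CPM after TGFb and 332, 318, 321 and 316 CPM with STINGX before TGFb. The 4 TGFb libraries lay below all 8 others, and the control and STINGX+TGFb libraries overlapped. CTSL was 1.84-fold lower after TGFb (log2 fold change and SE, -0.88 ± 0.05, adjusted p = 3.56e-08) and 1.97-fold higher with STINGX before TGFb than with TGFb alone (0.98 ± 0.05, adjusted p = 1.46e-08). Against control, STINGX+TGFb did not pass (0.10 ± 0.05, adjusted p = 0.148), although it passed with library size alone (0.18) and on both FPKM scales.

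TPP1, which removes tripeptides from the ends of proteins, lies at chr11:6612768-6619448 on the minus strand. It had 173, 191, 208 and 224 CPM in the control libraries, 122, 85.2, 128 and 125 CPM after TGFb and 180.3, 167, 171 and 202 CPM with STINGX before TGFb. No TGFb library reached the lowest of the other groups, and 1 TGFb library stood well below the other 3. The log2 fold changes were -0.79 ± 0.12, adjusted p = 0.000544 after TGFb and 0.65 ± 0.12, adjusted p = 0.00209 with STINGX before TGFb. When counts were summed over protein-coding transcripts only, an alternative chosen after seeing the data, neither TPP1 change passed (−0.07 and 0.36). In the full counts, transcript TPP1-218, of a nonsense-mediated decay type, held 1.04%, 14.8%, 36.8% and 0.00662% of the gene's counts in the control libraries, an uneven assignment between replicates. Its part in the loss of the TPP1 calls was not tested.

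CTSA, a carboxypeptidase that also protects the enzymes GLB1 and NEU1 in a complex, was lower in both steps. It had 666, 672, 587 and 575 CPM in the control libraries, 374, 415, 413 and 393 CPM after TGFb and 353, 346, 327 and 339 CPM with STINGX before TGFb. The 3 groups did not overlap. The falls were -0.65 ± 0.06, adjusted p = 2.57e-06 after TGFb and -0.23 ± 0.06, adjusted p = 0.0102 with STINGX before TGFb. The second fall shrank to −0.08 and did not pass with library size alone, nor did it pass on either FPKM scale or on protein-coding transcripts only. Of its partners in the complex, NEU1, a sialidase, fell after TGFb (-0.44 ± 0.05, adjusted p = 4.17e-05), and GLB1, the beta-galactosidase, did not pass (0.06 ± 0.12, adjusted p = 0.771).

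LGMN, an endopeptidase that cuts after asparagine and matures other cathepsins, went the opposite way from CTSL. It had 102, 97.4, 95.7 and 84.9 CPM in the control libraries, 119, 124, 112 and 114 CPM after TGFb and 80.04, 79.2, 86.3 and 82.8 CPM with STINGX before TGFb. All TGFb libraries lay above all others. LGMN rose after TGFb (0.31 ± 0.06, adjusted p = 0.00158) and fell with STINGX before TGFb (-0.52 ± 0.06, adjusted p = 2.33e-05), with a level below control (-0.21 ± 0.06, adjusted p = 0.014) although those 2 groups overlapped. The difference from control did not pass with library size alone (−0.13) or on either FPKM scale.

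CTSZ and CTSS did not pass after TGFb and fell with STINGX before TGFb. CTSZ, a carboxypeptidase, had 398, 390.3, 335 and 337 CPM in the control libraries, 404, 390.1, 385 and 379 CPM after TGFb and 261, 268, 259.9 and 273 CPM with STINGX before TGFb. The STINGX+TGFb libraries lay below all others, and control and TGFb overlapped. CTSZ changed by -0.55 ± 0.06, adjusted p = 9.97e-06 against TGFb alone. CTSS, a cysteine protease known from antigen-presenting cells, had 136, 121, 117 and 77.9 CPM in the control libraries, 97.9, 92.1, 91.4 and 87.3 CPM after TGFb and 59.97, 64.97, 63.1 and 56.2 CPM with STINGX before TGFb. Here too the STINGX+TGFb libraries were the lowest 4, and 1 control library was well below the other 3. CTSS changed by -0.59 ± 0.13, adjusted p = 0.00552 against TGFb alone, and after TGFb it did not pass (-0.29 ± 0.13, adjusted p = 0.133) unless that control library was left out (−0.44). Of 6 tested macrophage and leukocyte markers, 1 was higher and 3 lower after TGFb, and 1 was higher and 2 lower with STINGX before TGFb. That is 66.7% and 50% of those tested, beside 26% and 27.5% of all genes. These markers did not move together: CD68 fell and then rose, and the mean of CSF1R rose and then fell. CD14 fell after TGFb and did not pass in the second step. Their part in the CTSS values was not tested.

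CTSK, a collagen-cutting cysteine protease, was the member with the lowest mean CPM. It had 7.05, 6.27, 6.86 and 7.87 CPM in the control libraries, 5.14, 4.30, 4.46 and 5.67 CPM after TGFb and 3.07, 3.20, 4.18 and 4.26 CPM with STINGX before TGFb. TGFb libraries lay below control libraries, and STINGX+TGFb libraries below TGFb libraries. It fell after TGFb (-0.52 ± 0.14, adjusted p = 0.0127), while the second step did not pass (-0.42 ± 0.15, adjusted p = 0.0511) and passed in 7 other settings, with log2 values between −0.50 and −0.42. CTSC, which activates serine proteases, fell with STINGX before TGFb (-0.27 ± 0.06, adjusted p = 0.00664), a call lost with library size alone (−0.13) and on both FPKM scales.

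CTSD, the main aspartic protease of lysosomes, did not pass in any comparison. It had 303, 419, 338 and 343 CPM in the control libraries, 291, 373, 316 and 365 CPM after TGFb and 460.1, 348, 363 and 331 CPM with STINGX before TGFb. The groups overlapped throughout, and the log2 values were -0.06 ± 0.13, adjusted p = 0.779 after TGFb and 0.16 ± 0.13, adjusted p = 0.403 with STINGX before TGFb. CTSD overlaps 3 other tested genes, of which 1, on the opposite strand, rose with STINGX before TGFb (0.75, adjusted p = 0.0134). CTSB, a cysteine protease, also did not pass (0.13 ± 0.26, adjusted p = 0.779 and -0.27 ± 0.26, adjusted p = 0.494), with a wide spread between replicates that is described below.

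**Figure D2:**
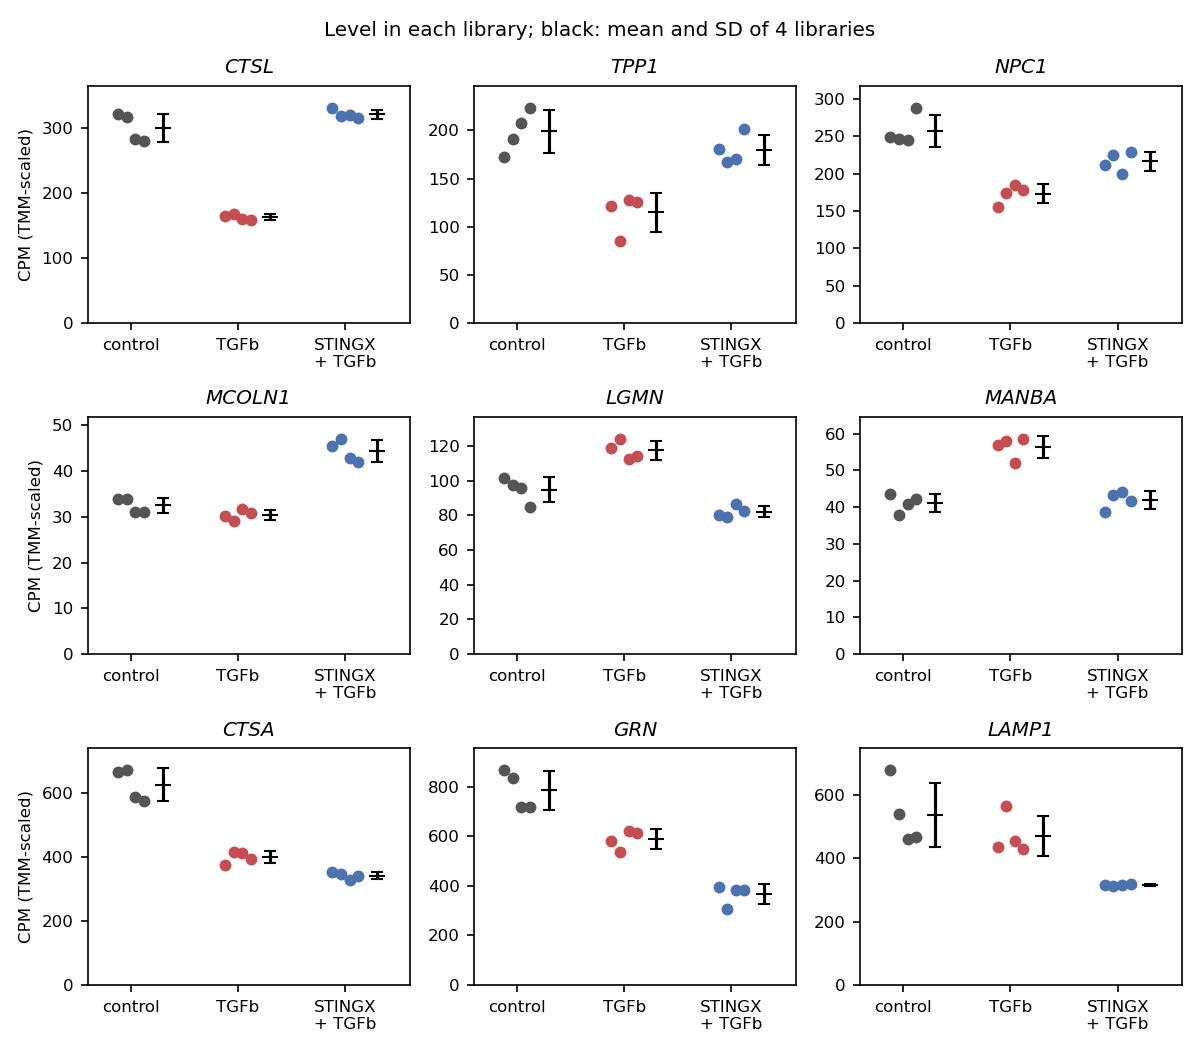
TMM-scaled CPM (vertical axes, from 0) of 9 of the genes in each of 12 libraries, with the mean and SD of 4 libraries in black beside each group. CTSL, TPP1 and NPC1 are lowest after TGFb, LGMN and MANBA are highest there, MCOLN1 is highest in the 4 STINGX+TGFb libraries, and CTSA, GRN and LAMP1 are lowest in those 4.

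Among the membrane proteins, LAMP1 and LAMP2, whose products are the most abundant glycoproteins of the lysosomal membrane, both fell with STINGX before TGFb. LAMP1 had 681, 541, 462 and 469 CPM in the control libraries, 435, 565, 455 and 431 CPM after TGFb and 317, 312, 317 and 319 CPM with STINGX before TGFb. Control and TGFb libraries overlapped, and the 4 STINGX+TGFb libraries lay close together below all others. The change after TGFb did not pass (-0.19 ± 0.12, adjusted p = 0.291), and the change with STINGX before TGFb did (-0.58 ± 0.12, adjusted p = 0.0039), a level 1.49-fold lower than with TGFb alone. LAMP2, whose splice forms also serve chaperone-mediated autophagy, had 257, 253, 254 and 244 CPM in the control libraries, 269.8, 291, 277 and 263 CPM after TGFb and 235, 235, 235 and 243 CPM with STINGX before TGFb. The TGFb libraries were the highest 4 and the STINGX+TGFb libraries the lowest 4, within a narrow range. LAMP2 rose after TGFb (0.13 ± 0.04, adjusted p = 0.0203) and fell with STINGX before TGFb (-0.22 ± 0.04, adjusted p = 0.000687). The rise did not pass with upper quartile scaling, library size alone, FPKM, no filter on low counts or the 8 compared libraries alone. It also did not pass without control replicate 4 (0.11) or without TGFb replicate 2 (0.10). The fall did not pass with library size alone (−0.08) or on either FPKM scale.

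CD63 had 704, 635, 555 and 515 CPM in the control libraries, 446, 461, 338 and 431 CPM after TGFb and 471, 656, 539 and 477 CPM with STINGX before TGFb. The TGFb libraries lay below all control and all STINGX+TGFb libraries. It fell after TGFb (-0.52 ± 0.14, adjusted p = 0.0142). With STINGX before TGFb the difference did not pass (0.35 ± 0.14, adjusted p = 0.0759), but it passed in DESeq2 (0.35) and with library size alone (0.50). SCARB2, the receptor that carries glucocerebrosidase to the lysosome, did not pass (-0.04 ± 0.30, adjusted p = 0.945 and 0.05 ± 0.30, adjusted p = 0.927).

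NPC1 and NPC2 work in sequence, NPC2 taking cholesterol up in the lumen and NPC1 passing it out through the membrane, and with STINGX before TGFb the RNA of NPC1 rose while that of NPC2 fell. NPC1 lies at chr18:23506184-23576947 on the minus strand and had 249, 246, 245 and 288 CPM in the control libraries, 155, 174, 185 and 178 CPM after TGFb and 212, 225, 199.8 and 229 CPM with STINGX before TGFb. The 3 groups did not overlap, with TGFb lowest and control highest. NPC1 fell after TGFb (-0.57 ± 0.07, adjusted p = 4.34e-05) and rose with STINGX before TGFb (0.32 ± 0.07, adjusted p = 0.00347), and it was below control (-0.25 ± 0.07, adjusted p = 0.0134). The difference from control did not pass with library size alone (−0.17) or on either FPKM scale. The gene overlaps RMC1 on the opposite strand, and RMC1 moved the same way (−0.26 and 0.25). Whether the authors' counting used strand is not given in the sources used here.

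NPC2 had 129.8, 172, 113 and 115 CPM in the control libraries, 175, 164, 163 and 147 CPM after TGFb and 97.8, 96.1, 102 and 115 CPM with STINGX before TGFb. The STINGX+TGFb libraries lay below the 4 TGFb libraries and overlapped the control libraries. NPC2 did not pass after TGFb (0.29 ± 0.12, adjusted p = 0.0981), though it did without control replicate 2 (0.44), and it fell with STINGX before TGFb (-0.66 ± 0.12, adjusted p = 0.00145).

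MCOLN1, the calcium channel TRPML1, whose opening is known to activate TFEB, was the 1 member above control after STINGX and TGFb. It had 33.8, 34.00, 31.01 and 31.2 CPM in the control libraries, 30.1, 29.1, 31.7 and 30.8 CPM after TGFb and 45.6, 47.1, 42.96 and 41.98 CPM with STINGX before TGFb. The 4 STINGX+TGFb libraries lay above all 8 others, which overlapped. MCOLN1 was 1.46-fold higher than with TGFb alone (0.54 ± 0.06, adjusted p = 1.37e-05) and 1.37-fold higher than control (0.45 ± 0.06, adjusted p = 5.29e-05). Its end overlaps the start of PNPLA6 on the same strand, and PNPLA6 had log2 values of 0.23 and 0.04 in the same comparisons, the second without passing.

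Glycosidases that fell after TGFb were FUCA1, NEU1, GAA, NAGLU and HEXA, and MANBA rose. FUCA1, which removes fucose from glycoproteins and glycolipids, had 26.9, 27.9, 25.5 and 25.6 CPM in the control libraries, 15.4, 16.99, 15.3 and 15.1 CPM after TGFb and 17.4, 19.1, 18.2 and 16.8 CPM with STINGX before TGFb. TGFb and STINGX+TGFb libraries lay below all control libraries. FUCA1 fell by 0.75 on the log2 scale after TGFb (SE 0.07, adjusted p = 2.6e-06), and the difference between the treated groups did not pass (0.18 ± 0.07, adjusted p = 0.0596), while against control it was -0.57 ± 0.06, adjusted p = 2.14e-05. GAA, which breaks down glycogen, fell in both steps (-0.41 ± 0.07, adjusted p = 0.00125 and -0.29 ± 0.08, adjusted p = 0.0124). The second GAA call was lost with library size alone (−0.15) and on both FPKM scales. NAGLU, an enzyme of heparan sulfate breakdown, and HEXA, a subunit of beta-hexosaminidase, fell less after TGFb (-0.27 ± 0.08, adjusted p = 0.0199 and -0.21 ± 0.06, adjusted p = 0.0226). Each of these 2 calls was lost when 1 of several libraries was left out, at −0.25 to −0.21 for NAGLU and −0.20 to −0.18 for HEXA. With STINGX before TGFb HEXA fell again (-0.19 ± 0.06, adjusted p = 0.0313), but this call was lost with library size alone (−0.05), on both FPKM scales, without a filter on low counts (−0.18), and without TGFb replicate 1 or 4 or STINGX+TGFb replicate 1, 3 or 4 (−0.19 to −0.16).

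MANBA, the beta-mannosidase that finishes the breakdown of N-linked glycans, had 43.5, 37.95, 40.8 and 42.1 CPM in the control libraries, 56.96, 57.9, 52.1 and 58.7 CPM after TGFb and 38.7, 43.3, 44.2 and 41.6 CPM with STINGX before TGFb. The TGFb libraries lay above all others, and control and STINGX+TGFb overlapped. It rose by 0.46 ± 0.06, adjusted p = 0.000127 after TGFb and changed by -0.43 ± 0.06, adjusted p = 0.000207 with STINGX before TGFb. MAN2B1, the alpha-mannosidase of the same pathway, did not pass after TGFb (0.19 ± 0.07, adjusted p = 0.0536) and fell with STINGX before TGFb (-0.26 ± 0.07, adjusted p = 0.0117). On protein-coding transcripts only, the second MAN2B1 value turned to 0.44 (adjusted p = 0.342), and the call was also lost with library size alone and on both FPKM scales.

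IDUA, which removes iduronic acid from heparan and dermatan sulfate, had 14.6, 17.6, 14.3 and 15.1 CPM in the control libraries, 12.3, 12.2, 16.1 and 14.2 CPM after TGFb and 18.3, 16.6, 16.9 and 20.7 CPM with STINGX before TGFb. Every STINGX+TGFb library lay above every TGFb library, and the overlap with control was partial. IDUA rose by 0.41 ± 0.11, adjusted p = 0.0143 against TGFb alone, but not on protein-coding transcripts only (0.06). GUSB, the beta-glucuronidase, had 99.4, 100.4, 92.3 and 88.5 CPM in the control libraries, 86.2, 76.8, 90.98 and 85.9 CPM after TGFb and 96.2, 94.2, 106 and 103 CPM with STINGX before TGFb. STINGX+TGFb libraries again lay above TGFb libraries and overlapped control. GUSB rose by 0.23 ± 0.06, adjusted p = 0.015. GLB1 went the other way (-0.48 ± 0.12, adjusted p = 0.00984), with 1 STINGX+TGFb library inside the TGFb range, and its call was lost with library size alone (−0.34) and on both FPKM scales.

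None of the 5 sulfatases passed after TGFb, and 1 passed with STINGX before TGFb. GALNS, which removes sulfate from keratan sulfate and chondroitin 6-sulfate, lies at chr16:88813734-88856970 on the minus strand and had 63.97, 67.5, 64.3 and 62.3 CPM in the control libraries, 61.9, 58.1, 60.8 and 60.3 CPM after TGFb and 41.02, 41.9, 38.7 and 40.03 CPM with STINGX before TGFb. The STINGX+TGFb libraries lay below all others, and the TGFb libraries lay below the control libraries by a small margin. The change was -0.58 ± 0.05, adjusted p = 9.22e-07 against TGFb alone and -0.10 ± 0.04, adjusted p = 0.137 after TGFb. SGSH, ARSA, ARSB and IDS did not pass in any comparison, with log2 values between −0.97 and 0.66. The 2 ends of that range were both IDS, the iduronate sulfatase (0.66 ± 0.37, adjusted p = 0.228 and -0.97 ± 0.37, adjusted p = 0.0791), whose TGFb libraries had 164, 170.4, 66.8 and 200.4 CPM.

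Lipid hydrolases and their helpers fell or did not pass. GRN, whose product regulates lysosomal hydrolases and sphingolipid breakdown, lies at chr17:44345246-44353102 on the plus strand and had 869, 836, 718 and 716 CPM in the control libraries, 580.4, 536, 623 and 614 CPM after TGFb and 396, 308, 384 and 381 CPM with STINGX before TGFb. The 3 groups did not overlap, with control highest and STINGX+TGFb lowest. GRN fell by 0.42 ± 0.09 (adjusted p = 0.00384) after TGFb and by 0.68 ± 0.09 (adjusted p = 9.4e-05) with STINGX before TGFb. PSAP had 1538, 1553, 1349.9 and 1382 CPM in the control libraries, 1211, 1193, 1171 and 1118 CPM after TGFb and 1101, 1051, 1036 and 1060.1 CPM with STINGX before TGFb. Its 3 groups also did not overlap and were ordered the same way. The changes were -0.31 ± 0.05, adjusted p = 0.000353 and -0.14 ± 0.05, adjusted p = 0.0415. The second did not pass with library size alone (−0.0030), on either FPKM scale or without a filter on low counts. It also did not pass without any 1 of 6 libraries (TGFb replicates 1, 2 and 3, STINGX+TGFb replicates 2, 3 and 4), at −0.14 to −0.13.

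LIPA, the acid lipase that breaks down cholesteryl esters and triglycerides, had 81.7, 86.4, 78.7 and 82.9 CPM in the control libraries, 61.5, 59.3, 55.7 and 60.1 CPM after TGFb and 53.5, 37.8, 59.9 and 56.2 CPM with STINGX before TGFb. All treated libraries lay below all control libraries, and the treated groups overlapped. LIPA fell after TGFb (-0.48 ± 0.11, adjusted p = 0.00614), and with STINGX before TGFb it did not pass (-0.19 ± 0.11, adjusted p = 0.233). It lies at chr10:89213569-89414557 on the minus strand, and the annotated gene overlaps the interferon-induced genes IFIT1, IFIT2 and IFIT3 on the plus strand, which changed by −3.81, −2.80 and −2.23 in the second comparison. Their part in the LIPA counts was not tested.

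Of the other lipid genes, ASAH1, the acid ceramidase, fell after TGFb (-0.46 ± 0.13, adjusted p = 0.0205), a call lost without control replicate 1 (−0.37), control replicate 2 (−0.40) or TGFb replicate 4 (−0.40). The ASAH1 call was also lost on protein-coding transcripts only. SMPD1, the acid sphingomyelinase, had 36.04, 34.6, 20.1 and 32.1 CPM in the control libraries, 19.6, 22.95, 21.7 and 12.4 CPM after TGFb and 15.6, 10.7, 18.98 and 13.2 CPM with STINGX before TGFb. Control and TGFb libraries overlapped only through 1 control library. Its change after TGFb did not pass (-0.68 ± 0.23, adjusted p = 0.054), but it passed in 9 other settings, among them without control replicate 3 (−0.84) and in DESeq2 (−0.68). PPT1, which removes palmitate from proteins, did not pass in any comparison (0.03 ± 0.41, adjusted p = 0.968 and -0.10 ± 0.41, adjusted p = 0.892).

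TFEB itself was the lowest of the 39 genes per length. It lies at chr6:41683978-41736259 on the minus strand and had 5.93, 6.08, 5.67 and 5.75 CPM in the control libraries, 6.50, 6.28, 5.47 and 5.29 CPM after TGFb and 3.57, 4.62, 3.87 and 3.69 CPM with STINGX before TGFb. Control and TGFb overlapped, and the 4 STINGX+TGFb libraries lay below all others. TFEB did not pass after TGFb (0.01 ± 0.11, adjusted p = 0.955), and it fell with STINGX before TGFb (-0.58 ± 0.11, adjusted p = 0.00185), 1.5-fold lower than with TGFb alone. TFEB protein is controlled mainly by phosphorylation and location, which RNA levels do not report.

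The relatives of TFEB had another pattern. MITF had 10.6, 10.4, 11.9 and 13.9 CPM in the control libraries, 5.80, 4.94, 4.99 and 5.81 CPM after TGFb and 11.03, 9.38, 9.30 and 10.04 CPM with STINGX before TGFb. The TGFb libraries were the lowest 4. MITF fell after TGFb (-1.12 ± 0.12, adjusted p = 1.15e-05) and rose with STINGX before TGFb (0.88 ± 0.12, adjusted p = 9.33e-05). TFE3 had 188, 197, 190.1 and 183 CPM in the control libraries, 147, 154, 152 and 148 CPM after TGFb and 198, 197, 193 and 194 CPM with STINGX before TGFb. TGFb libraries were again the lowest 4, with changes of -0.34 ± 0.03, adjusted p = 9.38e-06 and 0.38 ± 0.03, adjusted p = 2.88e-06. Over 22 tested regulators of lysosome gene expression, 3 were higher and 4 lower after TGFb, and 5 higher and 2 lower with STINGX before TGFb (13 higher and 1 lower with library size alone). That is 31.8% of the list in each comparison, between the 26% and 27.5% of all genes and the 35.2% and 37.7% of genes at or above the lowest member. RRAGC, a Rag GTPase that brings TFEB to the lysosome, changed by -0.35 ± 0.08 and 0.48 ± 0.08, and ZKSCAN3, a repressor of lysosomal genes, rose by 0.57 ± 0.19 with STINGX before TGFb.

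Other genes of the organelle were counted in the same fit. They came from lists drawn up by function, but with earlier results of these data known, so their shares are descriptive. Of 37 further hydrolases and activators, 1 was higher and 18 lower after TGFb (median log2 −0.21). That is 51.4% of the list, beside 26% of all genes (12.8% lower) and 35.2% of genes at or above the lowest member (16.3% lower). The lowest value was that of the phosphatase ACP5 (-1.10 ± 0.33), which averaged 0.852 CPM over all libraries. Among genes of at least 2 CPM, the largest falls were in the cathepsin genes CTSO (-1.07 ± 0.12) and CTSF (-0.59 ± 0.07) and in the ribonuclease RNASET2 (-0.70 ± 0.15), and the carboxypeptidase SCPEP1 rose (0.24 ± 0.06). With STINGX before TGFb, 8 were higher and 7 lower (12 and 5 with library size alone), which is 40.5% of the list, close to the 37.7% of genes at or above the lowest member. RNASET2 rose (0.80 ± 0.15), as did HGSNAT, an enzyme of heparan sulfate breakdown (0.43 ± 0.04), and GLA, the alpha-galactosidase (0.36 ± 0.08), while GGH, which shortens folate polyglutamates, fell (-0.73 ± 0.07).

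In 27 further membrane proteins, channels and transporters, 2 were higher and 7 lower after TGFb, and 11 were higher and 1 lower with STINGX before TGFb (14 and 1 with library size alone). That is 33.3% of the list after TGFb, beside 26% of all genes and 35.2% of genes at or above the lowest member, and 44.4% in the second step, beside 27.5% and 37.7%. TMEM192, a membrane protein used to tag lysosomes, had 23.6, 20.7, 22.3 and 22.3 CPM in the control libraries, 18.7, 20.05, 19.2 and 19.1 CPM after TGFb and 42.1, 42.2, 42.9 and 40.1 CPM with STINGX before TGFb. Every STINGX+TGFb library lay above every other library, and the change against TGFb alone was 1.12 ± 0.06, adjusted p = 1.38e-08. The sialic acid exporter SLC17A5 fell and then rose (-0.46 ± 0.07 and 0.66 ± 0.07), and LAPTM5, a protein best known from blood cells, rose and then fell (0.72 ± 0.06 and -0.62 ± 0.06).

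The V-ATPase, the proton pump that acidifies lysosomes, had 1 of 18 subunits higher and 7 lower after TGFb, and 5 higher and 1 lower with STINGX before TGFb (8 and 1 with library size alone). That is 44.4% of the 18 genes after TGFb, beside 26% of all genes and 35.2% of genes at or above the lowest member. In the second step it is 33.3%, between the 27.5% of all genes and the 37.7% of genes at or above the lowest member. ATP6V0A2, a membrane-sector subunit, rose in both steps (0.52 ± 0.06 and 0.43 ± 0.06), ATP6V0E2 fell after TGFb (-0.59 ± 0.07), and ATP6V0A1 rose in the second step (0.94 ± 0.18). The accessory subunit ATP6AP1 fell there (-0.54 ± 0.06). Of 23 genes of enzyme sorting and maturation, 3 were higher and 4 lower after TGFb, led by CLN8, an exporter of lysosomal enzymes from the endoplasmic reticulum (1.22 ± 0.24). In the second step 2 were higher and 5 lower (5 and 3 with library size alone). The share called was 30.4% in each comparison, again between the shares of all genes and of genes at or above the lowest member. SUMF1, which activates all sulfatases, and SORT1, a sorting receptor, both fell there (-0.75 ± 0.12 and -0.60 ± 0.04). Among 5 tested cystatins, which inhibit cysteine cathepsins, 1 was higher and 1 lower after TGFb, with positive log2 values in 4 of 5 (median 0.08). That is 40% of those tested, beside 26% of all genes and 35.2% of genes at or above the lowest member. CST3 fell (-0.57 ± 0.11, adjusted p = 0.00197), and CST1, which averaged 1.13 CPM over all libraries, rose (0.94 ± 0.31, adjusted p = 0.0398). In the second step all 5 log2 values were negative (median −1.39), but 4 did not pass, and CST1 was the 1 that passed (-1.39 ± 0.32, adjusted p = 0.00609). The share called was 20%, below the 27.5% of all genes and the 37.7% of genes at or above the lowest member.

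**Figure D3:**
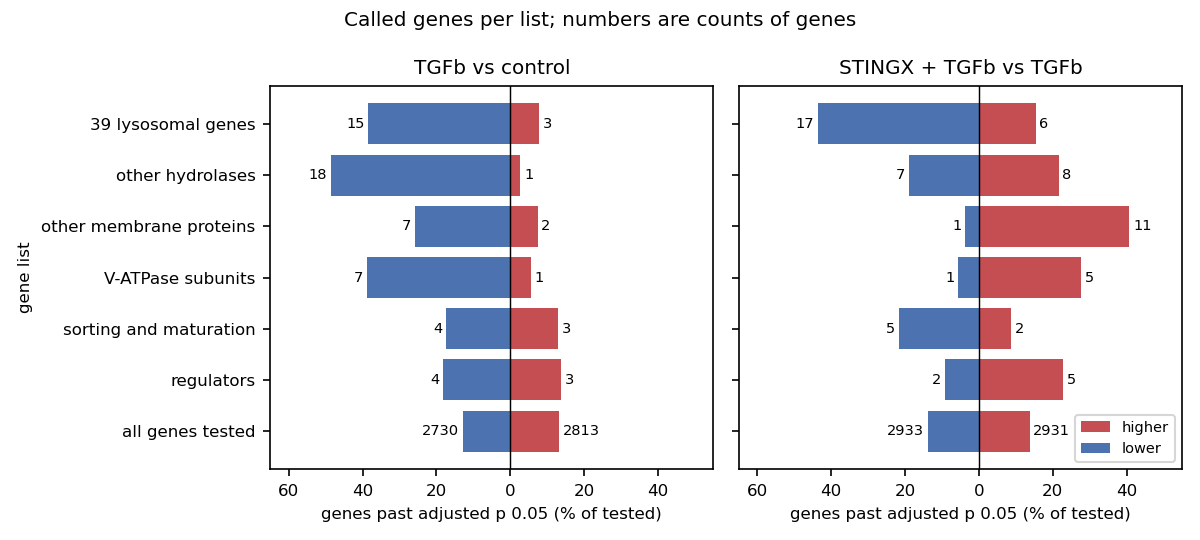
Share of the tested genes of each list (horizontal axis, in percent of tested genes) that were higher (right) or lower (left) at an adjusted p of 0.05, with the counts of genes beside the bars, for TGFb against control and STINGX+TGFb against TGFb. The 39 genes and the other hydrolases have 15 and 18 lower genes after TGFb, and the other membrane proteins have 11 higher genes in the second comparison.

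CD68, a lysosomal glycoprotein related to the LAMPs that is listed here as a macrophage marker, had 60.4, 60.3, 56.9 and 61.00 CPM in the control libraries, 26.3, 27.05, 21.5 and 22.7 CPM after TGFb and 69.2, 84.2, 81.2 and 68.8 CPM with STINGX before TGFb. The TGFb libraries lay below all others. CD68 fell after TGFb (-1.29 ± 0.09, adjusted p = 2.46e-07) and rose with STINGX before TGFb (1.63 ± 0.09, adjusted p = 2.86e-08), the same signs as CTSL, TPP1 and NPC1. CD14 and CSF1R, 2 of the other macrophage genes, did not share this order: CD14 averaged 15.7 ± 2.19 CPM in control, 2.42 ± 0.483 after TGFb and 2.30 ± 0.445 with STINGX before TGFb (SD, n = 4), and CSF1R averaged 1.24 ± 0.145, 6.03 ± 0.461 and 3.47 ± 0.438 CPM.

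Seen across both steps, 3 members rose and then fell (LAMP2, MANBA and LGMN), 3 fell and then rose (CTSL, TPP1 and NPC1), and 5 fell in both (CTSA, HEXA, GAA, PSAP and GRN). Of these 5, GRN kept both calls in every setting run. The second fall of the other 4 did not pass with library size alone. A further 7 passed only as lower after TGFb, 3 only as higher and 9 only as lower in the second comparison, and 9 in neither. The 2 comparisons share the TGFb libraries, so they are not independent, and a gene passing in 1 of them was not tested for a difference from the other.

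The spread between replicates set how much could be seen for some members. In 34 of the 39 genes the coefficient of variation stayed below 25% in every group, and the median over members of the largest value was 10.9%. The 5 exceptions were PPT1 (up to 48.7%), SGSH (45.5%), IDS (43.0%), SCARB2 (38.7%) and CTSB (32.2%), none of which passed in any comparison. For CTSB and PPT1, the libraries of a group differed in the transcript to which most counts were assigned. Transcript CTSB-202 held 94.04%, 16.6%, 93.00% and 18.00% of the CTSB counts in the control libraries. Transcript CTSB-232 held 0.0521%, 79.3%, 3.01% and 67.2% in the same libraries, so the 2 transcripts traded places. For PPT1, transcript PPT1-212, of a retained-intron type, held 44.5%, 91.5%, 20.7% and 91.8% of counts after TGFb. These shares are the authors' estimates from short reads, which often cannot tell transcripts apart.

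**Figure D4:**
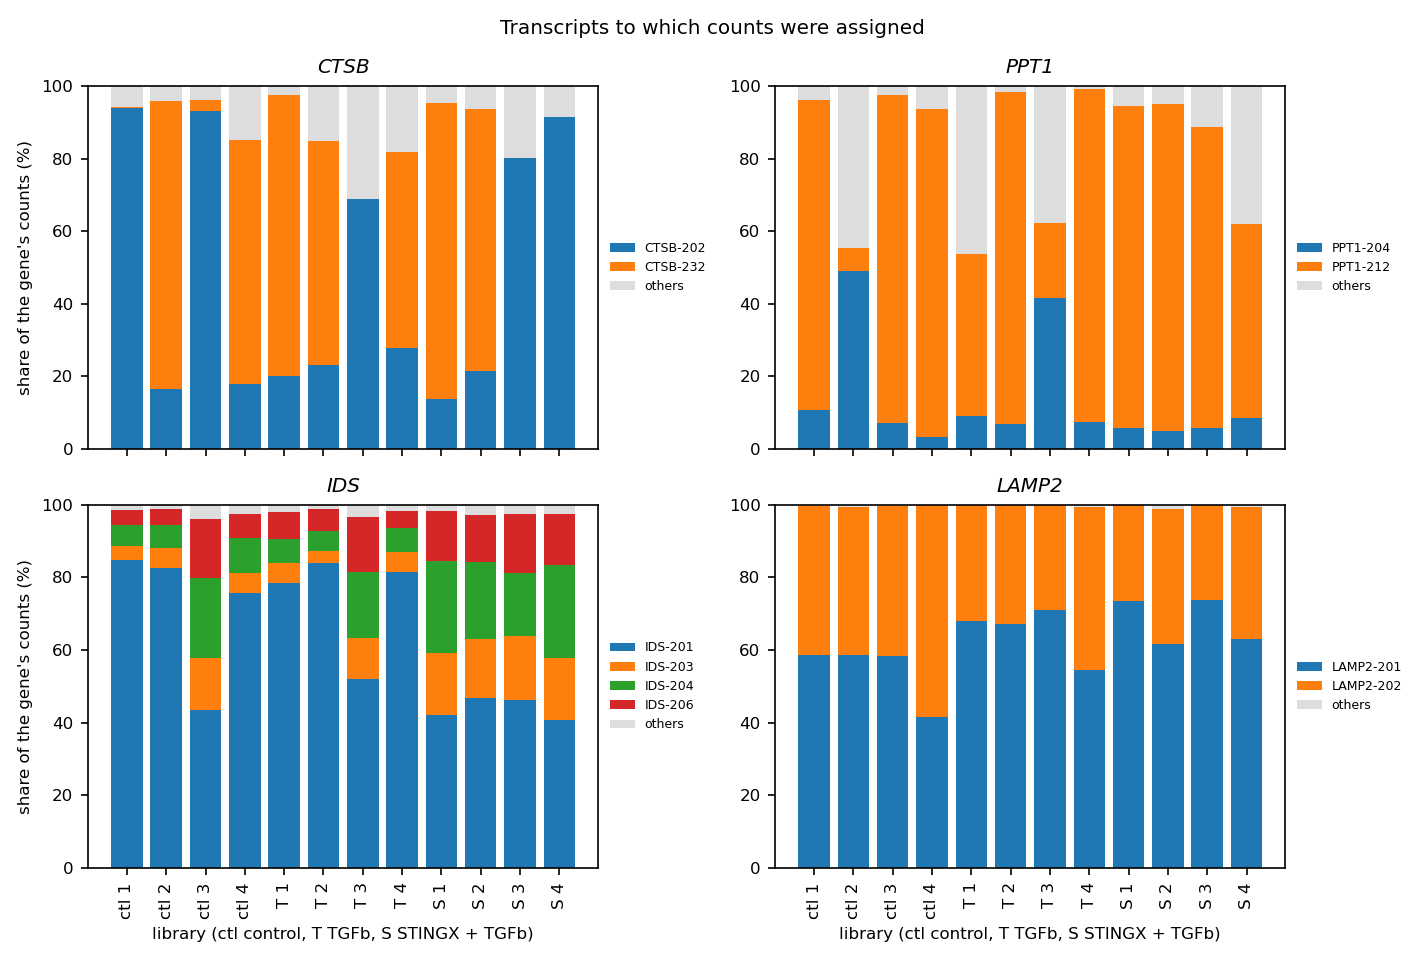
Share of each gene's counts (vertical axis, percent) assigned to each transcript in each of the 12 libraries (horizontal axis) for CTSB, PPT1, IDS and LAMP2, with transcripts whose mean share was under 10% in every group pooled in grey. CTSB counts lie on CTSB-202 in some libraries of a group and on CTSB-232 in others, and IDS-203 lies between 16.4% and 17.7% in all STINGX+TGFb libraries.

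Transcript usage was tested for 37 members with edgeR, in a test that called too many genes on simulated data. At least 1 transcript passed in 11 members after TGFb, 10 in STINGX+TGFb against TGFb and 14 in STINGX+TGFb against control, beside 13.6%, 14.1% and 18.2% of all 12322 genes tested. A gene with more tested transcripts has more occasions to pass, and members and all genes were not matched for this number. Without a filter on low counts, 19 rather than 10 members passed in STINGX+TGFb against TGFb. Counted by transcript, 12, 14 and 16 of the 315 members' transcripts passed, beside 2.72%, 2.85% and 3.78% of all 70977. The shares did not overlap between the groups compared for 0 of these 12, 3 of 14 and 5 of 16. This was counted only for called transcripts of the members, so there is no share over all transcripts to set beside it. GALNS-209, of a nonsense-mediated decay type, held 0.200%, 75.8%, 72.1% and 0% in control, 0.108%, 0.176%, 0.0943% and 0.287% after TGFb and 0.167%, 65.4%, 65.8% and 65.4% with STINGX before TGFb. High and low libraries stood in both the control and the STINGX+TGFb group. The GALNS fall against TGFb alone passed in all settings, at −1.11 to −0.37. Counting protein-coding transcripts only leaves out GALNS-209. That removes most counts of the STINGX+TGFb libraries with a high share and almost none of the TGFb libraries, so that setting cannot test this fall. The fall against control did not pass on protein-coding transcripts only (−0.37). Between TGFb and control, the GALNS value ran from −0.16 to 0.75 over the settings.

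IDS-203, a protein-coding transcript, was 1 of those without overlap. It held 3.66%, 5.61%, 14.2% and 5.55% of IDS counts in control, 5.55%, 3.31%, 11.2% and 5.38% after TGFb and 17.2%, 16.4%, 17.7% and 17.2% with STINGX before TGFb. The 4 STINGX+TGFb libraries lay above all others, close together, and 1 library of each other group came near them (edgeR, adjusted p = 0.000431 against TGFb, from the same test, whose calls ran too high on simulated data). Those near libraries, control replicate 3 (44.8 CPM) and TGFb replicate 3 (66.8 CPM), also had the lowest IDS level of their groups. Whether the shares reflect uneven assignment between transcripts was not tested. The share of LAMP2-201, which encodes 1 of the LAMP2 membrane tails, was 58.5%, 58.7%, 58.4% and 41.5% in control, 67.9%, 67.1%, 71.01% and 54.6% after TGFb and 73.6%, 61.5%, 73.9% and 63.02% with STINGX before TGFb. These shares overlapped between groups and did not pass.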

How the data were processed

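The authors deposited whole-number estimated counts per gene and per transcript, with FPKM (fragments per length and library size) beside them, for 12 libraries of polyadenylated RNA made with a stranded kit, per the labels' protocols. The submitters' processing notes name cutadapt, HISAT2, StringTie and edgeR, with no versions, and GRCh38. Use of strand in counting is not given in the sources used here, so genes that overlap are uncertain: 19 of the 39 overlap a tested gene, 14 of them on the opposite strand. Depth was 54035320 to 70787741 counts per library, and edgeR's common dispersion of 0.0782 corresponds to a coefficient of variation of 28% between replicates.

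The counts, already whole numbers, were filtered with filterByExpr (minimum count 10, minimum total 15) and fitted over all 3 groups with edgeR 4.0.16 (R 4.3.3), TMM scaling and the robust quasi-likelihood test, with 9 residual degrees of freedom. P-values were adjusted by the Benjamini-Hochberg method over 21328 genes, and a gene was called at an adjusted p under 0.05. FPKM values, tested as log2(FPKM + 1) with limma 3.58.1, and DESeq2 1.42.0 were alternatives. Scripts were tested on simulated data, where the transcript usage test called too many genes. The members and gene lists were chosen with earlier results of these data known. Named genes were the largest called changes in each direction, up to 8 per comparison and at a mean of at least 2 CPM, together with TFEB, LAMP1, LAMP2, CD63, CTSD and PSAP, and others are named to account for each member. The values by library of SMPD1, IDS, CD68, CD14 and CSF1R, the genes ACP5 and CST1, the overlapping genes and the named transcripts were chosen after their values were seen. In the companion lists, the 3 largest called changes in each direction were eligible by the same rule.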

Additional observations from a re-analysis of the deposited data

Results flagged for a closer look

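In 8 of 117 groups of 4 libraries (6.84%), 1 library stood apart from the other 3 by Dixon's criterion, and chance gives about 1 in 20. TPP1 in TGFb replicate 2 was at 85.23 CPM, against 121.6 to 127.8 CPM in the other TGFb libraries. FUCA1 in the same library was at 16.99 CPM, against 15.14 to 15.39 CPM. CTSC in TGFb replicate 4 was at 85.27 CPM, against 71.76 to 73.92 CPM. NPC1 in control replicate 4 was at 288.5 CPM, against 245.0 to 249.0 CPM. In the STINGX+TGFb group, GRN was at 307.8 CPM in replicate 2 (others 381.5 to 396.2), SCARB2 at 155.5 CPM in replicate 3 (others 207.1 to 211.2), PPT1 at 70.43 CPM in replicate 4 (others 121.5 to 122.4) and LAMP2 at 242.8 CPM in replicate 4 (others 234.6 to 235.3). The 8 cases fall in 6 libraries.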

How the results depend on the processing

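Of the members' calls, 13 of 18 after TGFb, 13 of 23 in STINGX+TGFb against TGFb and 16 of 22 in STINGX+TGFb against control passed in every setting run. Scaling moved the second comparison most: library size alone gave 11 members higher and 9 lower among 4997 genes higher and 1890 lower, log2(FPKM + 1) gave 11 and 9 among 4918 and 1907, and log2(FPKM + 0.1) gave 11 and 9 among 4865 and 1905. In STINGX+TGFb against control, members higher numbered 4, 3 and 3 under those settings, and over all genes 62%, 61.9% and 61.9% of calls were higher, against 50.3% under TMM. After TGFb the share of calls that were higher was 38.7%, 38.9% and 39%, with 2 members higher and 18, 19 and 19 lower. On protein-coding transcripts only, 2410 genes and 2 members were higher in STINGX+TGFb against control, where fewer genes (14239) were tested, and MAN2B1 in STINGX+TGFb against TGFb turned to 0.44. Without a filter on low counts, 19 members rather than 10 had a change of transcript usage in STINGX+TGFb against TGFb, and the cause was not tested.

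Leaving out 1 library at a time gave 2 to 5 members higher and 12 to 17 lower after TGFb, 6 to 8 higher and 15 to 18 lower in STINGX+TGFb against TGFb, and 1 to 2 higher and 19 to 22 lower in STINGX+TGFb against control. Members with a change of transcript usage then numbered 11 to 16, 8 to 13 and 12 to 18. Libraries with the same replicate number did not deviate together (correlations of -0.0383 to 0.0452, 12 pairs), so the numbers were not treated as a pairing. With the replicate number as a block, 4 members were higher and 15 lower after TGFb, 8 and 18 in STINGX+TGFb against TGFb, and 1 and 21 in STINGX+TGFb against control.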

Other observations

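The 6 members that passed in no comparison and are not described by library above had these ranges. CTSB ran from 159 to 322 CPM in control, 194 to 295 CPM after TGFb and 157 to 269.7 CPM with STINGX before TGFb. PPT1 ran from 54.3 to 161, 54.7 to 171 and 70.4 to 122 CPM in the same order. SCARB2 ran from 102 to 286, 115 to 240.0 and 155 to 211 CPM. The groups of these 3 genes overlapped in all 3 comparisons. Of the sulfatases, SGSH, an enzyme of heparan sulfate breakdown, ran from 32.7 to 67.99, 19.99 to 49.6 and 25.3 to 30.7 CPM, so its STINGX+TGFb libraries lay below all control libraries. ARSA, which removes sulfate from sulfatides, ran from 27.9 to 31.8, 28.3 to 32.8 and 27.9 to 41.4 CPM. ARSB, which acts on dermatan sulfate, ran from 36.2 to 41.4, 36.98 to 42.4 and 38.2 to 40.1 CPM.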
